A study of Mus musculus with 13 samples.

Results

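The genes described here are 9 regulators of apoptosis chosen by symbol: Bcl2, Bcl2l1, Mcl1, Bcl2l11, Bax and Bak1 of the BCL2 family, the caspase Casp8, and the inhibitors of apoptosis Xiap and Birc3. Cd5l, the gene the study centres on, encodes a protein also known as an apoptosis inhibitor of macrophages. Of the 9 genes, 8 had probe sets with a single symbol, 32 in all, and these 8 were among the 15384 genes tested of 18193 with a probe set. Bax was not analysed here. The measurements came from 13 Affymetrix mouse expression arrays of RNA from cells sorted for the surface protein CD31 from tumors of SKOV3ip1, a human ovarian cancer line. The line carried luciferase and was grown in female athymic nude mice, which lack a thymus and have few mature T cells but keep B cells, natural killer cells and macrophages. The resistant group (4 arrays) and the sensitive group (4 arrays) came from mice given B20, an antibody that blocks VEGF-A, and were told apart by the bioluminescence of the tumors under B20, growth of which marked resistance. The control group (5 arrays) came from the arm without B20, which according to the methods received a control IgG. The paper places the collection of cells before treatment, at the best response and at progression. Time of harvest and length of B20 treatment thus cannot be told apart from response. The labels number the samples as biological replicates but do not tie an array to a named mouse, so each p-value covers only the spread between the arrays of these groups, which may be technical.

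Cells undergo apoptosis by a mitochondrial and a death receptor route. In the mitochondrial route, BH3-only proteins such as Bim (Bcl2l11) set free or activate Bax and Bak1, which perforate the outer mitochondrial membrane unless they are held by the guardians Bcl2, Bcl-xL (Bcl2l1) and Mcl1. In the death receptor route, ligands such as Fas ligand activate caspase-8 (Casp8), and both routes meet at the executioner caspases, which Xiap blocks directly, while cIAP2 (Birc3) keeps receptor signals on a survival course as a ubiquitin ligase. VEGF induces Bcl2 in endothelial cells, and neutrophils depend strongly on Mcl1.

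The label of the sorted cells was checked against markers first. The median of 12 endothelial markers was 3.15 to 4.21 on resistant arrays, 2.63 to 3.33 on sensitive arrays, 2.75 to 3.06 on control arrays 1 to 3, and 7.11 and 7.14 on control arrays 4 and 5, in log2 intensity. Pecam1, which encodes CD31 itself, stood at 2.74 to 3.41 on resistant arrays, 2.32 to 3.16 on sensitive arrays and 2.39 to 6.56 on control arrays, where control arrays 4 and 5 were the high ones. The endothelial label was thus borne out by these markers on 2 of the 13 arrays, and the cells are called CD31-sorted here. The median of 12 macrophage and monocyte markers was 8.74 to 10.07 on resistant arrays, 9.72 on sensitive array 4 but 4.07, 4.22 and 4.76 on sensitive arrays 1, 2 and 3, and 8.02 to 9.14 on control arrays. The mesothelial median was 7.19 and 7.37 for sensitive arrays 1 and 2 and 6.87 for resistant array 2, and B cell markers had a median of 8.55 on sensitive array 3 alone. Sensitive arrays 1 and 2 also had the lowest trimmed mean intensities, both 19.4 against 23.8 to 33.5 on the other 11 arrays. Sensitive array 4 had a difference between 3' and 5' control probes of 5.75, against 2.15 to 4.11 elsewhere. Arrays correlated at 0.896 to 0.955 within the resistant group, 0.664 to 0.919 within the sensitive group and 0.906 to 0.985 within the control group.

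No apoptosis regulator passed the test in any comparison. With limma and Benjamini-Hochberg adjustment over 15384 genes, 0 of the 8 genes and 0 of all genes (0%) had an adjusted p under 0.05 between resistant and sensitive, between sensitive and control (0%), or between resistant and control arrays (0%). At an unadjusted p under 0.05, Mcl1 was the 1 gene of 8 that was higher in resistant than in sensitive arrays, against a background of 4.54% of all genes higher and 2.53% lower. Mcl1 missed this threshold with array weights (p of 0.0902), with only the 2 groups fitted (0.0752), with the replicate block (0.0689), and without any one of sensitive arrays 1, 2 and 3 or resistant arrays 1, 2 and 3 (0.0534 to 0.101), all by limma. It also missed it without sensitive arrays 1 and 2 (0.113), without sensitive arrays 1 to 3 (0.977) and without the 5 arrays of lowest trimmed mean (0.193). Between sensitive and control arrays 0 of the 8 had an unadjusted p under 0.05, against 5.32% of all genes higher and 6.57% lower, and between resistant and control arrays 0 of the 8 did, against 0.995% higher and 1.53% lower. These shares correspond to 1087, 1829 and 388 genes in the 3 comparisons, and a plain two-sample t-test gave 529, 1371 and 1043 genes at that threshold, again with 0 after adjustment. This is the test named in the methods but without their random variance model, and 2 genes had no value from it between resistant and sensitive arrays. By that test Mcl1 reached the unadjusted threshold between resistant and sensitive arrays and Bak1 between sensitive and control arrays, 1 of the 8 in each, and 0 of the 8 did between resistant and control arrays. For none of the 8 genes did the groups stand fully apart, which held for 0.975% of all genes higher and 0.897% lower in resistant than in sensitive arrays, 1.43% and 1.59% in sensitive against control arrays, and 1.31% and 1.39% in resistant against control arrays. In bulk samples such as these, fewer cells of a type and less RNA per cell cannot be told apart.

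In the 2 comparisons with the sensitive group, the count of 0 genes depended most on sensitive array 4. Leaving it out kept only sensitive arrays 1, 2 and 3, with macrophage and monocyte medians of 4.07, 4.22 and 4.76. In that fit, 428 genes passed between resistant and sensitive arrays, 696 between sensitive and control arrays and 0 between resistant and control arrays. Still 0 of the 8 apoptosis regulators passed, with Mcl1 at adjusted p of 0.0961 and 0.112 by limma in the first 2 comparisons. Without control array 1, 4 genes passed between resistant and sensitive arrays, and without control array 3, 1 gene passed between sensitive and control arrays, again none of the 8. Between resistant and sensitive arrays 6 of the 8 were higher and 2 lower, while 42.1% of all genes were higher, with a median log2 fold change of 0.47 against -0.07 over all genes. Between sensitive and control arrays 2 were higher and 6 lower, while 58.4% of all genes were higher, with a median of -0.50 against 0.09 over all genes. These 2 comparisons share the sensitive arrays, so the second is not a repeat of the first. Between resistant and control arrays 3 were higher and 5 lower, while 54.3% of all genes were higher. The median was -0.0064 against 0.03 over all genes, and no log2 fold change of the 8 lay beyond -0.17 or 0.16.

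**Figure D1:**
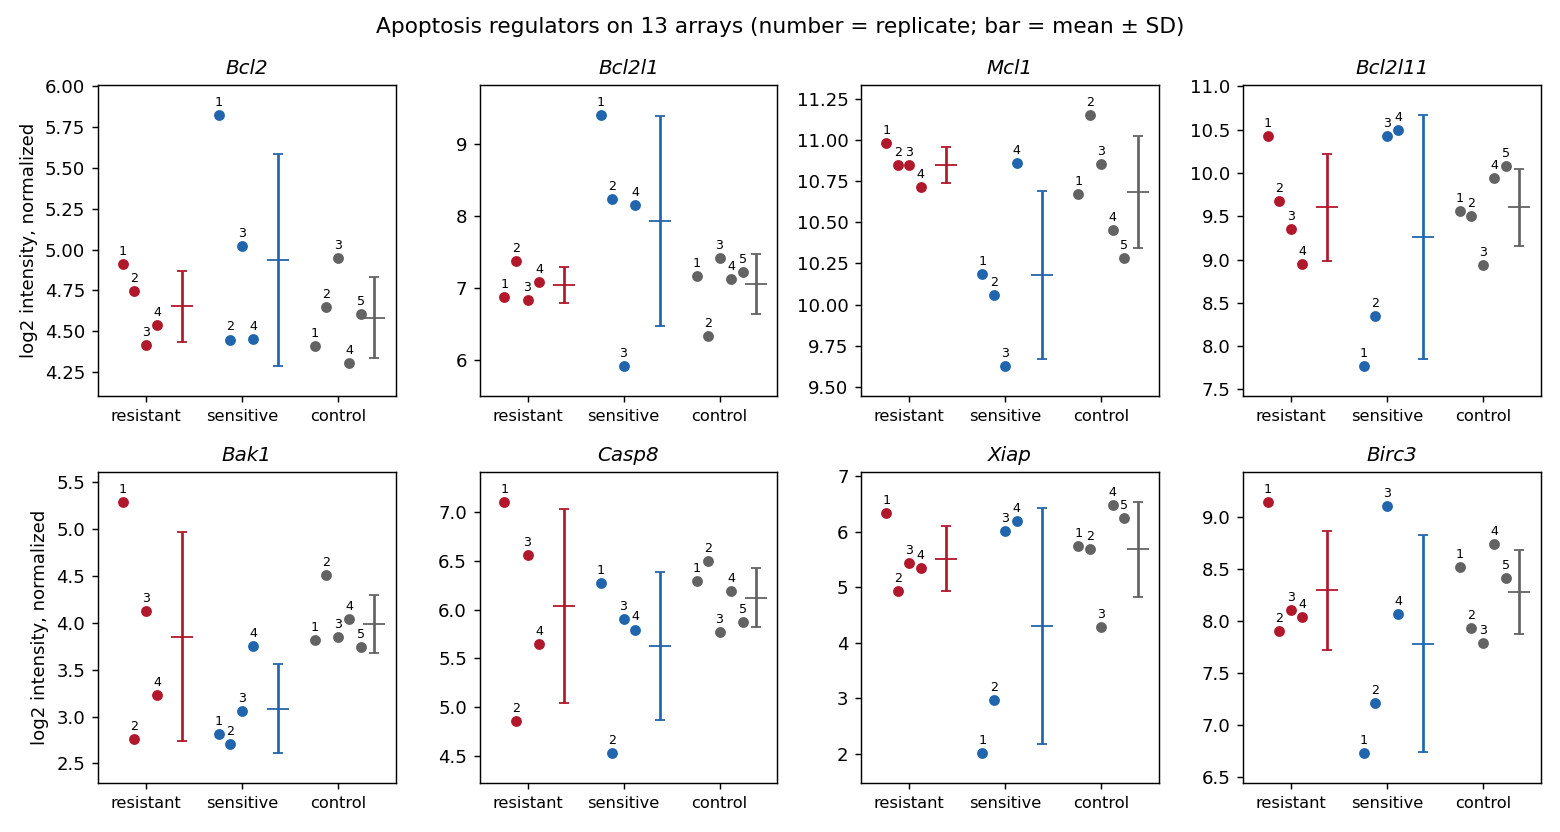
Log2 intensity of the main probe set of 8 apoptosis regulators on each array, by group (resistant, sensitive, control), with the replicate number above each point and the mean ± SD beside it. Each panel has its own vertical axis, which does not start at 0. The sensitive group has the widest SD for Bcl2, Bcl2l1, Mcl1, Bcl2l11, Xiap and Birc3, and no gene separates the groups.

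**Figure D2:**
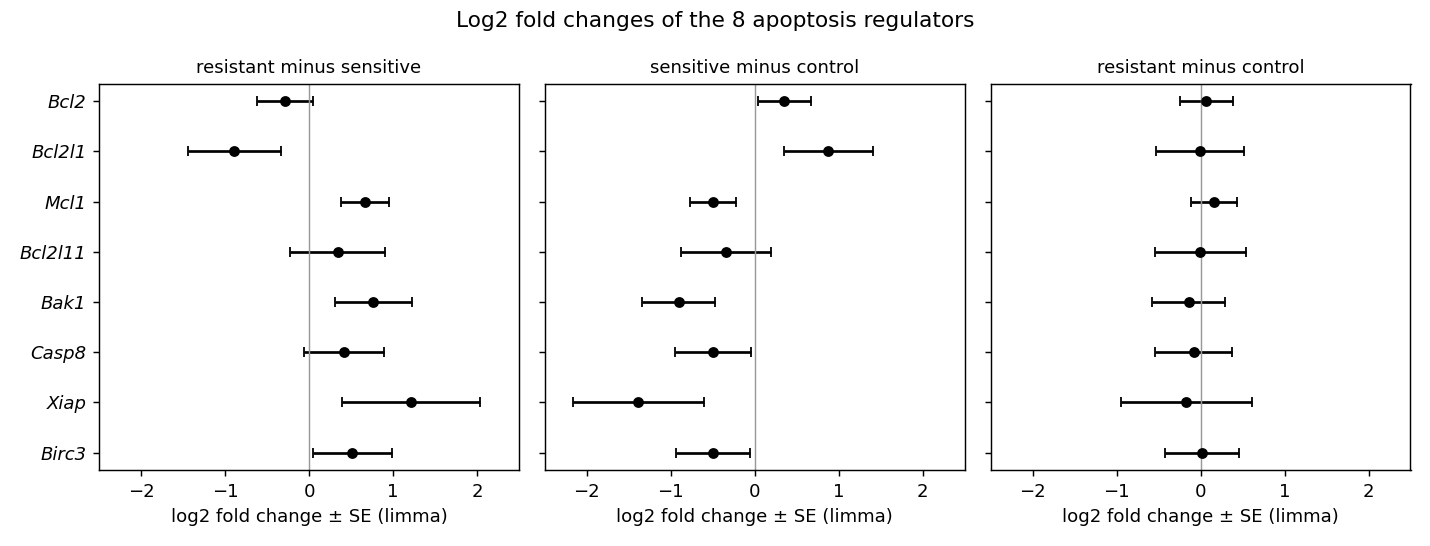
Log2 fold changes with SE from limma for the 8 genes in resistant minus sensitive, sensitive minus control and resistant minus control. Mcl1 lies at 0.67 in the first panel and -0.50 in the second, and all 8 genes lie between -0.17 and 0.16 in the third.

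Mcl1, a short-lived guardian on which neutrophils rely, was the member with the smallest p between resistant and sensitive arrays. Its main probe set read 10.98, 10.85, 10.85 and 10.72 on the resistant arrays, 10.19, 10.06, 9.63 and 10.86 on the sensitive arrays, and 10.67, 11.15, 10.85, 10.46 and 10.29 on the control arrays. Sensitive arrays 1, 2 and 3 were lower than every other array, and sensitive array 4 lay inside the ranges of both other groups, so the groups overlapped. The means were 10.85 ± 0.11 in resistant (SD over 4 arrays), 10.18 ± 0.51 in sensitive (4 arrays) and 10.68 ± 0.34 in control arrays (5 arrays). The log2 fold change was 0.67 (SE 0.29) between resistant and sensitive arrays, with an unadjusted p of 0.0366 and an adjusted p of 0.685 by limma, and 5.32% of all genes had a smaller p. Sensitive minus control was -0.50 (SE 0.27), with an adjusted p of 0.463, and resistant minus control was 0.16 (SE 0.27), with an adjusted p of 1.

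Mcl1 had 6 probe sets, and they ran the same way. All 6 were higher in resistant than in sensitive arrays, by 0.67 to 1.24 on the log2 scale, and 5 of them had an unadjusted p under 0.05. All 6 were lower in sensitive than in control arrays, 4 of them with an unadjusted p under 0.05. The largest difference was that of 1416880_at, which read 10.13, 9.49, 9.71 and 9.74 on the resistant arrays, 8.31, 8.18, 7.80 and 9.81 on the sensitive arrays, and 9.49, 10.43, 10.11, 9.51 and 9.35 on the control arrays. It differed by 1.24 (SE 0.40) on the log2 scale between resistant and sensitive arrays, with an unadjusted p of 0.00777, and sensitive minus control was -1.25 (SE 0.38), with an unadjusted p of 0.0053. The adjusted p over 33616 probe sets was 0.633 and 0.329 by limma. On every one of the 6 probe sets the same 3 sensitive arrays were the lowest of the 13.

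The macrophage and monocyte markers were low on the same 3 arrays as Mcl1. All 12 markers had a probe set, 11 or 12 of them were above the floor on every array, and their summed linear intensity was 8726 to 18752 on resistant arrays, 1131 to 18420 on sensitive arrays and 9511 to 16208 on control arrays. Of the defining markers, Csf1r read 10.58 to 11.47 on resistant arrays, 7.39, 8.61, 7.69 and 11.86 on sensitive arrays 1, 2, 3 and 4, and 10.40 to 11.22 on control arrays. With sensitive array 4 as the only sensitive array left, the log2 fold change of Mcl1 was -0.0094 between resistant and sensitive arrays and 0.17 between sensitive and control arrays. With sensitive array 4 left out instead, it was 0.89 and -0.73. The median of the neutrophil markers, 7 of 8 with a probe set, was 3.10 to 4.67 on resistant arrays, 2.93 to 4.24 on sensitive arrays and 4.16 to 6.12 on control arrays, with summed intensities of 197 to 422, 96.0 to 278 and 388 to 754. Their part and that of macrophage content in the Mcl1 values was not tested.

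**Figure D3:**
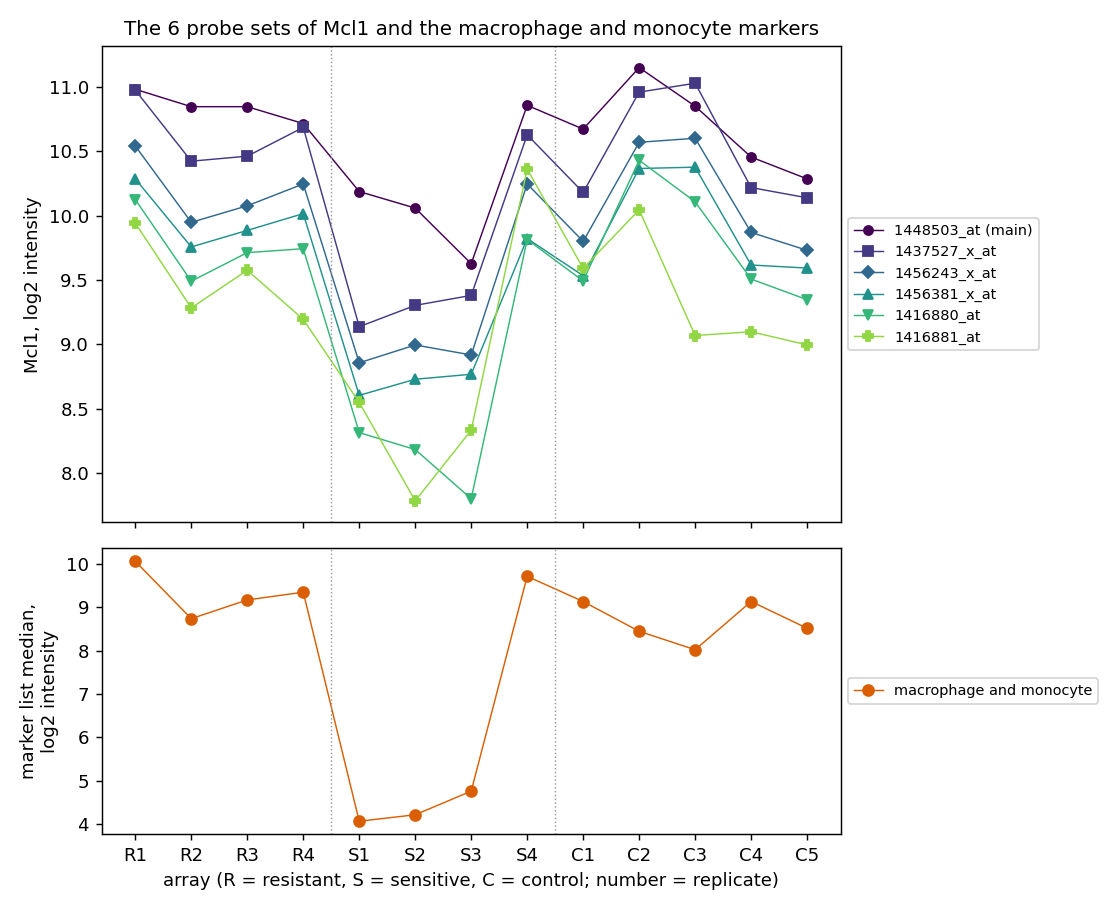
Log2 intensity of the 6 Mcl1 probe sets (upper panel) and the median log2 intensity of 12 macrophage and monocyte markers (lower panel) on each of the 13 arrays, with dotted lines between resistant (R), sensitive (S) and control (C) arrays. Lines only join the points of one probe set or list, since replicates have no order. S1, S2 and S3 are lowest in both panels, with marker medians of 4.07, 4.22 and 4.76, while S4 is at 9.72.

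Bcl2l1 encodes Bcl-xL, the guardian that also protects platelets, and its main probe set differed from Mcl1 in direction. It read 6.88, 7.37, 6.83 and 7.08 on the resistant arrays, 9.41, 8.25, 5.91 and 8.15 on the sensitive arrays, and 7.16, 6.33, 7.42, 7.12 and 7.22 on the control arrays. Sensitive arrays 1, 2 and 4 were above all arrays of the other groups and sensitive array 3 was below them all. The log2 fold change was -0.89 (SE 0.55) between resistant and sensitive arrays, with an unadjusted p of 0.131 and an adjusted p of 0.775, and sensitive minus control was 0.88 (SE 0.52), with an adjusted p of 0.491 by limma. Between resistant and control arrays it was -0.010 (SE 0.52). Leaving out sensitive array 3 gave -1.56 (unadjusted p of 0.000861, adjusted p of 0.44) and 1.55 (unadjusted p of 0.000632, adjusted p of 0.208). Leaving out sensitive arrays 1 and 2 gave 0.0094 and -0.020, the mean of the high sensitive array 4 and the low sensitive array 3. With sensitive array 4 as the only sensitive array, the values were -1.11 (unadjusted p of 0.0215, adjusted p of 0.713) and 1.10 (unadjusted p of 0.0204, adjusted p of 0.679), where the lone array was assumed to vary like those of the other groups.

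The remaining probe sets of Bcl2l1 were dim. The probe set 1426191_a_at read 2.31 to 2.73 on resistant arrays, 2.01 to 3.31 on sensitive arrays and 2.31 to 3.25 on control arrays, where 2.01 is the floor under which values were not distinguished. The probe set 1420887_a_at was at the floor on all 4 sensitive arrays and read up to 2.49 on resistant and 2.19 on control arrays, and 1426050_at was above the floor on 2 arrays and was not tested. Platelets and red cells were taken out on Percoll ahead of the sort, according to the labels. Platelet and erythroid markers had medians of 3.35 to 3.88 on resistant arrays, 5.22, 4.34, 3.19 and 3.15 on sensitive arrays 1 to 4, and 3.30 to 3.83 on control arrays, with 6 of 8 genes having a probe set and summed intensities of 373 to 931, 76.6 to 441 and 320 to 879 in the 3 groups. Epithelial tumor markers had medians of 3.65 to 4.41 on resistant arrays, 5.75, 5.08, 3.88 and 2.88 on sensitive arrays 1 to 4, and 3.12 to 4.79 on control arrays, all 8 genes having a probe set and summed intensities of 101 to 495, 117 to 1795 and 83.5 to 447. The epithelial markers were highest on sensitive arrays 1 and 2 by median and by sum. The platelet and erythroid markers were highest there by median only, since their sums of 298 and 177 on those arrays were below the 441 of sensitive array 4 and below every resistant and control array. On sensitive arrays 1 and 2 the mesothelial medians were 7.19 and 7.37 and the fibroblast and pericyte medians 8.10 and 8.83. Resistant array 2 had 6.87 and 8.86 for these lists. The tumor line is human and the arrays are mouse, so the epithelial list need not measure tumor cells. The part of any of these lists in the Bcl2l1 values was not tested.

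Bcl2, the founding guardian and a survival factor of lymphocytes, had 5 probe sets that differed in direction: all 5 were lower in resistant than in sensitive arrays, but 1 was higher and 4 were lower in sensitive than in control arrays. The main probe set 1422938_at read 4.91, 4.74, 4.42 and 4.54 on the resistant arrays, 5.82, 4.45, 5.02 and 4.45 on the sensitive arrays, and 4.41, 4.65, 4.95, 4.31 and 4.61 on the control arrays. Its groups overlapped, with sensitive array 1 the highest of all. The log2 fold changes were -0.28 (SE 0.34) between resistant and sensitive, 0.35 (SE 0.32) between sensitive and control and 0.07 (SE 0.32) between resistant and control arrays, with adjusted p of 0.838, 0.612 and 1 by limma.

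The probe set 1440770_at of Bcl2 was low in both B20 groups. It read 2.36, 2.32, 3.06 and 2.01 on the resistant arrays, 2.01, 2.01, 4.45 and 2.22 on the sensitive arrays, and 4.09, 4.11, 4.44, 4.05 and 4.08 on the control arrays. All 4 resistant arrays and 3 of the 4 sensitive arrays were below all 5 control arrays, and sensitive array 3 was just above them. The log2 fold change was -1.72 (SE 0.43) between resistant and control arrays, with an unadjusted p of 0.00121 and an adjusted p of 1, and sensitive minus control was -1.48 (SE 0.43), with an unadjusted p of 0.00361 and an adjusted p of 0.298 by limma over 33616 probe sets. The probe set 1443837_x_at ran the same way between resistant arrays (2.62 to 2.84) and control arrays (2.97 to 3.59), by -0.54 (SE 0.22, unadjusted p of 0.0308, adjusted p of 1). These were the 2 member probe sets whose resistant and control groups stood apart, against 1.25% of all probe sets lower in resistant arrays, and they were singled out after their values were seen.

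The probe sets 1457687_at and 1437122_at of Bcl2 followed sensitive array 3. The first read 3.67 to 5.36 on resistant arrays, 2.77, 3.23, 7.18 and 5.33 on sensitive arrays 1 to 4, and 4.23 to 5.15 on control arrays. The second read 2.31 to 3.98 on resistant arrays, 2.01, 2.69, 5.30 and 3.15 on sensitive arrays 1 to 4, and 3.15 to 4.01 on control arrays. Sensitive array 3 was the highest of the 13 arrays on both, and it was the array on which the B cell markers had a median of 8.55, against 3.61 to 5.48 on resistant arrays, 3.50 to 3.90 on the other sensitive arrays and 3.24 to 5.10 on control arrays. Of 8 B cell markers 7 had a probe set, and their summed intensity was 133 to 274 on resistant arrays, 138 to 2869 on sensitive arrays and 85.5 to 437 on control arrays. Other lymphocyte markers also peaked on sensitive array 3. The NK cell median was 6.05 there, with a sum of 724, against medians of 2.39 to 2.95 on resistant arrays, 2.56 to 2.72 on the other sensitive arrays and 2.55 to 4.48 on control arrays. The T cell median was 4.82 there, with a sum of 273, against 2.63 to 2.96 on resistant arrays, 2.68 to 3.48 on the other sensitive arrays and 2.58 to 4.33 on control arrays. The part of any of these cells in the Bcl2 values was not tested.

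**Figure D4:**
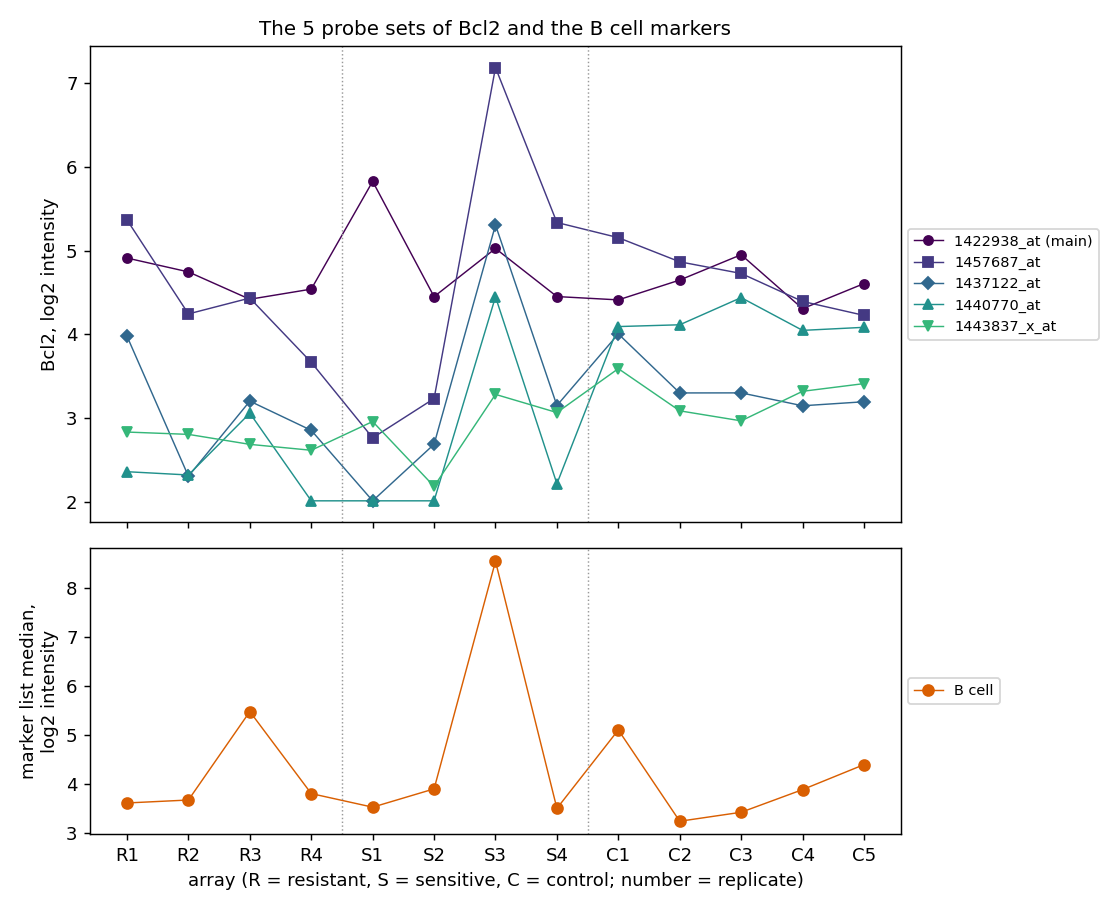
Log2 intensity of the 5 Bcl2 probe sets (upper panel) and the median log2 intensity of the B cell markers with a probe set (lower panel) on each of the 13 arrays, with dotted lines between resistant (R), sensitive (S) and control (C) arrays. On 1440770_at the resistant arrays lie at 2.01 to 3.06 and the control arrays at 4.05 to 4.44, and S3, with a marker median of 8.55, is the highest array for 1457687_at and 1437122_at.

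Counted over single probe sets, 27 of the 32 were tested. An unadjusted p under 0.05 was reached by 5 of the 27 between resistant and sensitive arrays, all of them of Mcl1, against 6.51% of 33616 probe sets. It was reached by 6 of the 27 between sensitive and control arrays, against 10.5%, and by 3 of the 27 between resistant and control arrays, against 2.54%. None passed adjustment, with lowest adjusted p of 0.632, 0.298 and 1 by limma. Probe sets of one gene share its transcripts and are not independent of each other.

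Bcl2l11 encodes Bim, the BH3-only protein that rises when growth factors are withdrawn. Its main probe set read 10.42, 9.67, 9.36 and 8.95 on the resistant arrays, 7.77, 8.35, 10.43 and 10.49 on the sensitive arrays, and 9.56, 9.50, 8.94, 9.94 and 10.08 on the control arrays. The sensitive group split, with arrays 1 and 2 below and arrays 3 and 4 above all arrays of the other groups. The log2 fold changes were 0.34 (SE 0.57), -0.34 (SE 0.54) and -0.0025 (SE 0.54) between resistant and sensitive, sensitive and control, and resistant and control arrays, with adjusted p of 0.878, 0.771 and 1 by limma. The probe set 1456006_at differed from the main one, with 5.85 to 6.37 on resistant arrays, 5.36 to 6.97 on sensitive arrays and 3.74 to 6.19 on control arrays. It differed by 1.18 (SE 0.48) on the log2 scale both between sensitive and control arrays (unadjusted p of 0.0273, adjusted p of 0.431) and between resistant and control arrays (unadjusted p of 0.0274, adjusted p of 1), and these 2 comparisons share the control arrays. The other 3 probe sets of Bcl2l11 had log2 fold changes of -0.37 to 1.03 between resistant and sensitive arrays, none with an unadjusted p under 0.05, and all 3 were highest on sensitive array 3.

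Bak1, a pore-forming protein of the outer mitochondrial membrane, read 5.29, 2.76, 4.12 and 3.23 on the resistant arrays, 2.81, 2.71, 3.06 and 3.76 on the sensitive arrays, and 3.82, 4.51, 3.85, 4.04 and 3.74 on the control arrays. The sensitive arrays were below the control arrays except sensitive array 4, which was just above control array 5, and the resistant arrays spanned both. Sensitive minus control was -0.91 (SE 0.43) on the log2 scale, with an unadjusted p of 0.0558 and an adjusted p of 0.429, and resistant minus sensitive was 0.77 (SE 0.46), with an adjusted p of 0.771 by limma. Without resistant array 1 the difference between resistant and sensitive arrays was 0.28. Between resistant and control arrays the log2 fold change was -0.14 (SE 0.43). These main probe set values of Bak1, 2.71 to 5.29, were low and in part close to the floor of 2.01. The second Bak1 probe set was dimmer still, at 2.01 to 2.97 over all arrays.

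Casp8, the initiator caspase of the death receptor route, had 1 probe set. It read 7.10, 4.85, 6.56 and 5.65 on the resistant arrays, 6.27, 4.53, 5.90 and 5.80 on the sensitive arrays, and 6.29, 6.49, 5.77, 6.19 and 5.87 on the control arrays. The highest and the second lowest of the 13 arrays were both resistant, and the groups overlapped. The log2 fold changes were 0.42 (SE 0.48), -0.50 (SE 0.45) and -0.08 (SE 0.45) between resistant and sensitive, sensitive and control, and resistant and control arrays, with adjusted p of 0.834, 0.617 and 1 by limma. Casp8 and Bak1 moved together, with a Pearson r of 0.798 over the 13 arrays and 0.904 without sensitive arrays 1 and 2. Across arrays such an r is a description only, because the arrays also share their signal level and their mix of cells.

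Xiap, the direct inhibitor of the executioner caspases, had the widest spread of the 8 genes, an SD of 1.36 over the 13 arrays that exceeded that of 95.7% of all genes. Its main probe set read 6.34, 4.94, 5.43 and 5.34 on the resistant arrays, 2.01, 2.97, 6.01 and 6.20 on the sensitive arrays, and 5.74, 5.69, 4.28, 6.48 and 6.24 on the control arrays. Sensitive array 1 was at the floor and sensitive array 2 was next, while sensitive arrays 3 and 4 lay among the resistant and control arrays. The log2 fold change was 1.22 (SE 0.82) between resistant and sensitive arrays, with an unadjusted p of 0.161 and an adjusted p of 0.787, and sensitive minus control was -1.39 (SE 0.78), with an unadjusted p of 0.0967 and an adjusted p of 0.472 by limma. Without sensitive arrays 1 and 2 these values were -0.59 and 0.42. Leaving out single arrays gave 0.46 to 1.85 and -2.02 to -0.63. Without sensitive array 3, and also without sensitive array 4, both differences had an unadjusted p under 0.05 by limma, but neither passed adjustment. Between resistant and control arrays the log2 fold change was -0.17 (SE 0.78). Of the 7 Xiap probe sets 3 were never above the floor, 1 was above it on 2 arrays, and 3 were tested. The tested 1450232_at hardly varied, from 4.29 to 4.71 over all arrays, and 1456088_at was also lowest on sensitive arrays 1 and 2, at 2.01 and 2.14.

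Birc3 encodes cIAP2, an inhibitor of apoptosis that inflammatory signals induce. Its main probe set read 9.14, 7.91, 8.10 and 8.03 on the resistant arrays, 6.73, 7.21, 9.11 and 8.07 on the sensitive arrays, and 8.51, 7.93, 7.78, 8.74 and 8.41 on the control arrays. Sensitive arrays 1 and 2 were the lowest of all, and resistant array 1 and sensitive array 3 the highest. The log2 fold changes were 0.52 (SE 0.47), -0.50 (SE 0.44) and 0.02 (SE 0.44) between resistant and sensitive, sensitive and control, and resistant and control arrays, with adjusted p of 0.804, 0.608 and 1 by limma. Without sensitive arrays 1 and 2 the first 2 values were -0.29 and 0.31. Leaving out single arrays gave 0.17 to 0.96 and -0.94 to -0.15. Without sensitive array 3 both differences had an unadjusted p under 0.05 by limma, but neither passed adjustment. The second probe set, 1425223_at, read 4.13 to 4.51 on resistant arrays, 4.35 to 4.998 on sensitive arrays and 4.49 to 5.14 on control arrays.

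The main probe sets of Bcl2l11, Xiap and Birc3 varied as a group across the arrays, and the group was formed after these values were seen. Other probe sets did not all follow. Xiap 1450232_at hardly varied, Bcl2l11 1456006_at was lowest on control array 3 (3.74), and Birc3 1425223_at was lowest on resistant array 4 (4.13). Genes outside the list also reached a high r, such as 0.974 for Ik with Xiap. The Pearson r over the 13 arrays was 0.918 for Bcl2l11 and Xiap, 0.888 for Xiap and Birc3, and 0.872 for Bcl2l11 and Birc3. Without sensitive arrays 1 and 2, which were low on the main probe sets of all 3 genes and had the lowest overall signal, the values were 0.781, 0.707 and 0.682 over 11 arrays. Bcl2l1 ran against them, at -0.778 with Birc3 and -0.738 with Xiap, but without those arrays these values were -0.448 and -0.124. Mcl1 did not follow the group, with r of 0.14 with Bcl2l11, 0.283 with Xiap and 0.0205 with Birc3, and without those arrays the sign turned, to -0.389, -0.311 and -0.569.

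**Figure D5:**
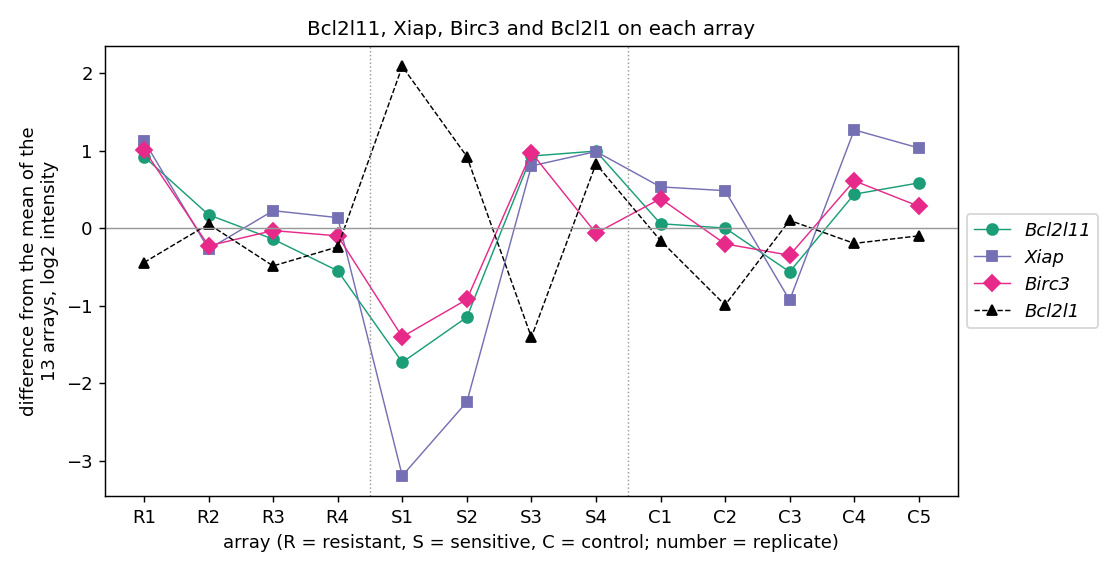
Difference of each array from the mean of the 13 arrays, in log2 intensity, for the main probe sets of Bcl2l11, Xiap, Birc3 and Bcl2l1 (dashed), with dotted lines between resistant (R), sensitive (S) and control (C) arrays. S1 and S2 are low for Bcl2l11, Xiap and Birc3 and high for Bcl2l1, and without them r between Bcl2l1 and Xiap is -0.124.

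The upstream sequences of these 3 genes, and of Mcl1 as the one that varied apart from them, are shown so that the group can be compared by sequence. RefSeq windows on GRCm38.p6 were matched by symbol for all 8 genes (13 windows), and the 250 bases before the start farthest upstream are printed 5' to 3' for Bcl2l11 (chr2:128125788-128126037, plus strand), Xiap (chrX:42067586-42067835, plus strand), Birc3 (chr9:7873171-7873420, minus strand) and Mcl1 (chr3:95658471-95658720, plus strand). Capitals mark matches, on either strand, to the GC box GGGCGG, the CCAAT box CCAAT, the hypoxia response core ACGTG, or the NF-kB motif, and no printed matches overlap.
Bcl2l11: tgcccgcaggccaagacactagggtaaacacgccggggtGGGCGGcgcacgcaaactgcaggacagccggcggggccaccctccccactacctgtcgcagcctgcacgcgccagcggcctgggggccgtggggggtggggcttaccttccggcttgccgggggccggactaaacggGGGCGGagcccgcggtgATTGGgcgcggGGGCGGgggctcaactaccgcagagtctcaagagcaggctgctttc
Xiap: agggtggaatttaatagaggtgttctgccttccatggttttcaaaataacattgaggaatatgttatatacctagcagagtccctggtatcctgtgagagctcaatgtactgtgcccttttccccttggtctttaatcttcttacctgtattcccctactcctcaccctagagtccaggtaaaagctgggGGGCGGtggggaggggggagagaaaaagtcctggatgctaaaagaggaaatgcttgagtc
Birc3: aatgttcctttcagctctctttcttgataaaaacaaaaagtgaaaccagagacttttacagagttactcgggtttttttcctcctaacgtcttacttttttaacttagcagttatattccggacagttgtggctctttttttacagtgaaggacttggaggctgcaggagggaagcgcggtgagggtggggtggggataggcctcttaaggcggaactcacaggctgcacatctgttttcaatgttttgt
Mcl1: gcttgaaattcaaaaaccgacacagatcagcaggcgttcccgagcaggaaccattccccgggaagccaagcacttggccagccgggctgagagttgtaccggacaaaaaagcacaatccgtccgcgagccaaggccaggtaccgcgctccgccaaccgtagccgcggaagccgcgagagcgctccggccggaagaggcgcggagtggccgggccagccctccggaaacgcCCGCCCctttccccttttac
The Bcl2l11 window held 3 GC boxes and 1 CCAAT box, the Xiap and Mcl1 windows 1 GC box each, and the Birc3 window none of the 4 motifs. Of 32851 windows of the same length, 32.7% held a GC box, 33.8% a CCAAT box, 16.6% the hypoxia core and 7.3% the NF-kB motif. The windows of Bcl2l11 and Mcl1 had 72.0% and 64.4% G and C, those of Xiap and Birc3 46.4% and 43.6%, and the median window 52.4%. No motif searched was present in all 3 windows of the group.

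The genes whose profile over the 13 arrays was most like each member's were taken by Pearson r among all genes tested. They were Ckap5 (0.924), Zfp511 and Psg23 for Bcl2, Psors1c2 (0.932), 4933409F18Rik and Nkx2-5 for Bcl2l1, and Samd8 (0.97), Trem1 and Ecm1 for Mcl1. They were Virma (0.953), Lrch3 and Fastkd5 for Bcl2l11, Prrg2 (0.93), Gpsm3 and Ethe1 for Bak1, and Wbp2 (0.955), Mrpl4 and Ppp1r12c for Casp8. For the inhibitors of apoptosis they were Ik (0.974), Mgat5 and Slk for Xiap, and Prelid2 (0.953), Pcmtd1 and Zfp277 for Birc3.

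Around the members, 51 other genes of the apoptosis pathway were looked up. A probe set represented 42 of them, and 40 entered the test. None passed adjustment in any comparison. At an unadjusted p under 0.05, 6 were higher and 2 lower in resistant than in sensitive arrays, 1 was higher and 6 lower in sensitive than in control arrays, and 0 reached it between resistant and control arrays. Of all genes, 4.54% were higher and 2.53% lower in the first comparison, 5.32% and 6.57% in the second, and 0.995% and 1.53% in the third. The median log2 fold change of the 40 was 0.02 between resistant and sensitive arrays, -0.10 between sensitive and control arrays and -0.05 between resistant and control arrays.

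The smallest p among them was that of Casp4. Casp4, the mouse caspase-11 that senses bacterial lipopolysaccharide in myeloid cells, read 7.90, 7.50, 8.32 and 7.82 on resistant arrays, 7.29, 6.44, 6.25 and 7.07 on sensitive arrays, and 7.93, 7.69, 7.81, 8.24 and 8.04 on control arrays. All 4 sensitive arrays were below every resistant and control array. The log2 fold change was 1.12 (SE 0.30, unadjusted p of 0.00225, adjusted p of 0.433) between resistant and sensitive arrays and -1.18 (SE 0.29, unadjusted p of 0.00101, adjusted p of 0.207) between sensitive and control arrays by limma, and Casp4 was the 1 gene of the 40 whose resistant and sensitive groups did not overlap, against 0.975% of all genes higher and 0.897% lower. Sensitive and control groups did not overlap for Casp4 and for Ripk3, a kinase of necroptosis that differed by -0.50 (SE 0.27, unadjusted p of 0.089) and was named after its values were seen. These were 2 of the 40, both lower in sensitive arrays, against 1.59% of all genes.

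Cflar, the cFLIP protein that holds caspase-8 in check, read 8.27, 8.76, 8.28 and 8.28 on resistant arrays, 4.80, 5.51, 6.31 and 8.86 on sensitive arrays, and 7.85, 9.03, 7.12, 7.89 and 7.84 on control arrays. Sensitive arrays 1, 2 and 3 were the lowest of all, the same 3 arrays as for Mcl1. The difference between resistant and sensitive arrays was 2.03 (SE 0.67, unadjusted p of 0.00946, adjusted p of 0.56). Naip2 and Naip5, NAIP proteins that in mice detect bacterial components for the inflammasome, differed by 2.18 (SE 0.69) and 2.07 (SE 0.89). Their unadjusted p was 0.00676 and 0.0349 and their adjusted p 0.534 and 0.68 by limma, but these near-identical paralogs may share probes. On sensitive arrays 1 to 4 Naip2 read 4.47, 2.32, 4.59 and 6.63, and Naip5 read 2.01 (the floor), 2.15, 5.08 and 7.02. Resistant arrays read 5.99 to 7.41 and 5.82 to 6.63. Sensitive array 4 thus had the highest Naip5 of all arrays. Bnip3, a hypoxia-induced BH3 protein, differed by 1.99 (SE 0.56, unadjusted p of 0.00335), and Mdm2, the ligase that degrades p53, by 1.26 (SE 0.45, unadjusted p of 0.0147). Lower in resistant arrays were Aifm1, the apoptosis-inducing factor of mitochondria, by -0.83 (SE 0.32, unadjusted p of 0.0213), and Birc6, the giant inhibitor of apoptosis BRUCE, by -0.93 (SE 0.39, unadjusted p of 0.0335).

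Between sensitive and control arrays, Pmaip1, the BH3-only protein Noxa, differed by -1.60 (SE 0.60, unadjusted p of 0.0188) and Tradd, the adaptor of the TNF receptor, by -1.14 (SE 0.40, unadjusted p of 0.0126). Noxa binds the Mcl1 protein and leads to its loss. Pmaip1 RNA read 6.52, 5.77, 6.51 and 6.13 on resistant arrays and 3.35, 4.19, 6.42 and 6.74 on sensitive arrays. It read 6.99, 7.47, 6.08, 6.34 and 7.02 on control arrays. Pmaip1 was low on sensitive arrays 1 and 2 and not on sensitive arrays 3 and 4. A link between these RNA values and Mcl1 was not tested. Birc6 was higher in sensitive than in control arrays by 0.94 (SE 0.37, unadjusted p of 0.0248). Adjusted p for these genes lay at 0.314 to 0.362 by limma.

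Cd5l itself averaged 8.54 ± 0.52 on resistant arrays (SD over 4 arrays), 3.68 ± 1.07 on sensitive arrays (4 arrays) and 6.11 ± 2.40 on control arrays (5 arrays), a log2 fold change of 4.86 (SE 1.01, adjusted p of 0.307 by limma) between resistant and sensitive arrays. Unlike Mcl1 and Cflar it was also low on sensitive array 4, at 4.48, and on control arrays 2 and 3, at 3.90 and 3.34.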

How the data were processed

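Values of 45101 Affymetrix probe sets on 13 arrays were used as deposited by the authors, with a range of 0.46 to 13.0 that was taken as log2 intensity. The deposited log2 scale is inferred, since the sources used here give neither its base nor the normalization. The labels name MAS5 as the software, whereas the methods of the study describe bead chips of another maker, a minimum intensity of 100 and a t-test with a random variance model. Because the 2%-trimmed mean intensities of the arrays differed by a ratio of 1.73, above the limit of 1.5, the arrays were quantile normalized, and values under the 30th percentile (2.01) were set to it, which understates changes of dim genes. Of the probe sets, 34958 had 1 gene symbol, 932 had several and 9211 were not listed and stay unnamed. The main probe set of a gene was the one with the highest mean over all arrays, and genes above the floor on at least 4 arrays were tested.

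Comparisons were two-sided and used limma 3.58.1 (R 4.3.3) on all 3 groups, with lmFit, eBayes with intensity trend and 10 residual degrees of freedom. The p-values of 15384 genes were adjusted by Benjamini-Hochberg, with 0.05 as the threshold. The fitting step was tested on simulated data. The number of arrays limits the precision. The members, pathway genes and markers were chosen with earlier results of these data known. Named were all members and all their probe sets, Cd5l, and the 3 genes most like each member. Pathway genes were named at an unadjusted p under 0.05 by limma, and Ripk3 for groups that did not overlap. Correlations are descriptions. Alternatives covered scaling, floor, filters, probe set choice, variance model, the methods' t-test without its random variance model, the replicate block and left-out arrays. Leaving out sensitive arrays 1 and 2, or the 5 arrays with the lowest trimmed means, was added after seeing the data.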

Additional observations from a re-analysis of the deposited data

Results flagged for a closer look

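Each of the 8 members and Cd5l was looked at within each group for a single array far from the rest, by the gap to the nearest array as a share of the group's range. Of 27 such groups 2 stood out, and chance alone gives about 1 in 20. Birc3 on resistant array 1, at 9.14, was far above the other resistant arrays (gap of 0.842 of the range), and without it the log2 fold change was 0.17 between resistant and sensitive arrays and -0.26 between resistant and control arrays. Bcl2l1 on control array 2, at 6.33, was far below the other control arrays (gap of 0.728 of the range), and without it the log2 fold change between resistant and control arrays was -0.19.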

How the results depend on the processing

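The count of members passing the test was 0 in every alternative run, but not every run tested all members. With the methods' minimum intensity of 100, only 2376 genes were tested, among them 4 members: Bcl2l1, Mcl1, Bcl2l11 and Birc3. Bcl2, Bak1, Casp8 and Xiap were left out by that minimum, so that run says nothing about them. In that run Bcl2l1 and Mcl1 had an unadjusted p under 0.05 by limma between resistant and sensitive arrays, against 13.8% of its genes. Bcl2l1 did between sensitive and control arrays, against 20.9%. The lowest adjusted p of a member was 0.278 and 0.186 in these comparisons. No log2 fold change of a member passed adjustment in any of 732 recomputed values, of which 658 kept their direction. The count of all genes passing moved in some: with the methods' minimum intensity of 100 it was 5 between resistant and sensitive and 22 between sensitive and control arrays, with array weights 34 between resistant and control arrays, and with only the 2 groups compared 2 between resistant and sensitive arrays. It was 2 and 4 without sensitive arrays 1 to 3, and 15 and 15 without sensitive arrays 1 and 2. Leaving out 1 array at a time gave 0 to 428 genes between resistant and sensitive, 0 to 696 between sensitive and control and 0 between resistant and control arrays, the highest counts without sensitive array 4. In that fit, which had 1 array fewer, 8.96% of genes were higher and 7.35% lower in resistant than in sensitive arrays at an unadjusted p under 0.05. Directions turned mostly between resistant and control arrays, where the differences were near 0. There, values as deposited gave -0.23 for Bcl2 and -0.049 for Birc3, and trimmed mean scaling -0.17 for Bcl2 and 0.014 for Bcl2l11. The mean of all probe sets gave -0.57 for Bcl2, 0.10 for Bcl2l1, 0.24 for Bcl2l11 and -0.23 for Birc3, and the probe set of largest variance -1.72 for Bcl2, -0.0092 for Mcl1 and 1.11 for Bcl2l11. Array weights gave 0.083 for Bak1, 0.20 for Casp8 and -0.21 for Birc3. Without control arrays 4 and 5, the values were -0.016 for Bcl2, 0.071 for Bcl2l1, -0.043 for Mcl1, 0.27 for Bcl2l11 and 0.28 for Xiap. Without the 5 arrays of lowest trimmed mean they were 0.12 for Bcl2l11, 0.68 for Bak1 and 0.62 for Casp8. Between sensitive and control arrays, the mean of all probe sets gave -0.37 for Bcl2 and 0.074 for Bcl2l11, and the probe set of largest variance -1.48 and 0.074. Without sensitive arrays 1 to 3, resistant minus sensitive was 0.20 for Bcl2, -0.0094 for Mcl1, -0.89 for Bcl2l11 and -0.68 for Xiap, and sensitive minus control was -0.13, 0.17, 0.89 and 0.51. Without sensitive arrays 1 and 2, resistant minus sensitive was 0.0094 for Bcl2l1, -0.86 for Bcl2l11, -0.59 for Xiap and -0.29 for Birc3, and sensitive minus control was -0.020, 0.86, 0.42 and 0.31. Without the 5 arrays of lowest trimmed mean, resistant minus sensitive was -0.57 for Bcl2l11 and -0.22 for Xiap, and sensitive minus control was 0.69 for Bcl2l11, 0.066 for Xiap and 0.19 for Birc3. Leaving out single arrays gave, between resistant and control arrays, -0.016 to 0.16 for Bcl2, -0.19 to 0.082 for Bcl2l1, -0.28 to 0.21 for Bcl2l11, -0.62 to 0.22 for Bak1, -0.44 to 0.31 for Casp8, -0.52 to 0.025 for Xiap and -0.26 to 0.15 for Birc3. Between resistant and sensitive arrays it gave -0.45 to 0.012 for Bcl2 and -0.16 to 0.75 for Bcl2l11, and between sensitive and control arrays -0.75 to 0.16 for Bcl2l11. Same-numbered arrays deviated with r of -0.43 to 0.53. Arrays of different number were not compared in this way, so this does not decide whether the numbers pair the samples. With the number as a replicate block 0 genes passed in each comparison, and resistant minus control was 0.032 for Bcl2l1 and 0.12 for Bcl2l11. The causes of these changes were not tested.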
